A study of Mus musculus with 7 samples.

Results

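The genes described here are 10 imprinted genes tied to growth, of 30879 genes in a single-cell expression table of mouse thyroid tissue and of thyroid follicular cell organoids (TFCOs). They are Mest, Nnat, Dlk1, Peg3, Plagl1, Grb10, Cdkn1c, Meg3, Rian and H19. They were listed by name, and their rows were read in every cell with at least 1000 unique molecular identifiers (UMIs, the tags that mark single mRNA molecules). All samples came from wild-type C57BL/6 mice, and no treatment was given. The tissue group held 2 samples of freshly dissociated thyroid, the late group 3 samples of late passage TFCOs and the early group 2 samples of early passage TFCOs. TFCOs are cultures of the follicular epithelium in basement membrane extract, kept in an expansion medium with EGF, FGF10, R-spondin 3, forskolin and a TGF-beta receptor inhibitor, so medium and dissociation differ between tissue and TFCOs together with the culture itself. Female mice were the source of the TFCOs per the study's methods, while the age and number of mice and the lines behind each sample are not given in the sources used here, and p values therefore measure the spread between samples, which may be in part technical.

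An imprinted gene is read mainly from the copy inherited from a single parent, because the other copy is silenced by marks, among them DNA methylation of CG pairs, that were set in the germ line. Many such genes act on growth before birth. Genes read from the father's copy, such as Mest, Dlk1, Peg3 and Plagl1, tend to favour growth or the supply of nutrients, and genes read from the mother's copy, such as Grb10, Cdkn1c and H19, tend to hold it back, although single genes depart from this pattern. Most are high in the fetus and placenta and fall after birth. The table counts both parental copies together, so it carries no information on which copy was read.

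Of 2590 cells, 2035 passed the minimum, 578 from tissue and 1457 from TFCOs. The samples held 235 to 360 such cells, with a median depth of 3368 to 12380.5 UMIs per cell. Late 2 and early 1 were the deepest of the 7 samples, at 12380.5 and 11059 UMIs. Clusters of tissue cells were named by markers, with the suffix -like, into thyroid follicular cell (TFC)-like (95 cells), endothelial-like (179), mural-like (54, the contractile cells around vessels), immune-like (57) and stromal-like (22) cells. Another 160 cells in 2 clusters stayed unnamed, and 11 cells of the TFC-like cluster were set aside because they scored higher for C cells, parathyroid cells or red blood cells. The requirement that a name be the highest score both in itself and relative to other cells was made with the clusters in view. All 14 TFC markers were detected in the TFC-like cells of both tissue samples, as in the TFCO samples, where the markers of endothelial, mural, immune and stromal cells summed to few UMIs. The level of the TFC markers was not alike. They summed to 1631 and 1218 UMIs per 10000 in the TFC-like cells of tissue 1 and 2. In TFCOs they summed to 174, 119 and 202 in late 1, 2 and 3 and to 111 and 164 in early 1 and 2. The leading genes of the TFC-like cluster were Tg and Calca, the latter a C cell gene. The same 384 well barcodes were used on every plate, and all were found in at least 2 libraries.

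The promoters of the 3 members with the most UMIs are shown, since each of the 3 led in another compartment (TFCO epithelium, mural and stromal cells, endothelium). Each run is the 250 bases before a RefSeq start site, read 5′ to 3′ on the gene's strand in build GRCm38.p6, with every CG pair, the target of methylation, in capitals.
Mest promoter, chr6:30737800-30738049, plus strand: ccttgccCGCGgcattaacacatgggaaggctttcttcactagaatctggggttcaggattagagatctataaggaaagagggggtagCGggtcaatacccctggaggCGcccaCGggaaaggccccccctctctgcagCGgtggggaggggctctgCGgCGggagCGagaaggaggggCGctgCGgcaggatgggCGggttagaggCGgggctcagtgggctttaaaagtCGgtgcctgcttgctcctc
Meg3 promoter, chr12:109540746-109540995, plus strand: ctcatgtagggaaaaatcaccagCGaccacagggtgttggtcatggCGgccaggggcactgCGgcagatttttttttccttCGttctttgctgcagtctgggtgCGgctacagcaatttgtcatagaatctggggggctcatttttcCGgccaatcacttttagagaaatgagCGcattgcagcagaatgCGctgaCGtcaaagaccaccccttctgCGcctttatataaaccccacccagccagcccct
Grb10 promoter, chr11:12037421-12037670, minus strand: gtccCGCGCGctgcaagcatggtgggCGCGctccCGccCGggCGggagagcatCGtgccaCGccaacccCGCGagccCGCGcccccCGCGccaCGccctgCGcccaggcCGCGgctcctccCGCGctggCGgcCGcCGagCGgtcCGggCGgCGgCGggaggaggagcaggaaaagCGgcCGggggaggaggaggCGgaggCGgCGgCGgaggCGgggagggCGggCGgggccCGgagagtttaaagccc
The motif CG, which reads alike on both strands, occurred 14 times in the Mest run, 10 times in the Meg3 run and 40 times in the Grb10 run, against a median of 6 over 32851 mouse promoters of that length. At least as many were held by 29.4% of those promoters for Mest, by 37.8% for Meg3 and by 1.31% for Grb10. Each gene has a further RefSeq start whose 250 bases hold fewer, with 7 CG for Mest, 0 for Meg3 and 8 for Grb10, and no listed run of these genes holds more than the run shown. For Mest, the run of another start, chr6:30737803-30738052, overlaps the run shown and also holds 14. Methylation was not measured, and the counts describe the letters only.

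Hairpins of microRNAs lie inside 4 members. The first arm of 1 hairpin per host is shown because the host RNA and the microRNA come from the same locus, with the seed (bases 2 to 8) in capitals.
miR-335-5p, inside Mest: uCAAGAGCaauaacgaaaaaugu
miR-770-5p, inside Meg3: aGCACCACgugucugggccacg
miR-370-5p, inside Rian: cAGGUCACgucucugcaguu
miR-675-5p, inside H19: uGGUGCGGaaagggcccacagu
No seed is shared among them. The SORT-seq libraries are primed on poly(A) tails, so none of the values below is a level of a microRNA.

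Each level below is the mean over the cells of a sample of UMIs per 10000 UMIs of the cell. Only 2 members, Mest and Grb10, reached the mean of 0.1 over the 3 group means that was required for a test, and the other 8 are given by their UMIs, levels and shares of cells. Levels of different genes are not compared per length here, since the libraries count 3′ ends.

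**Figure D1:**
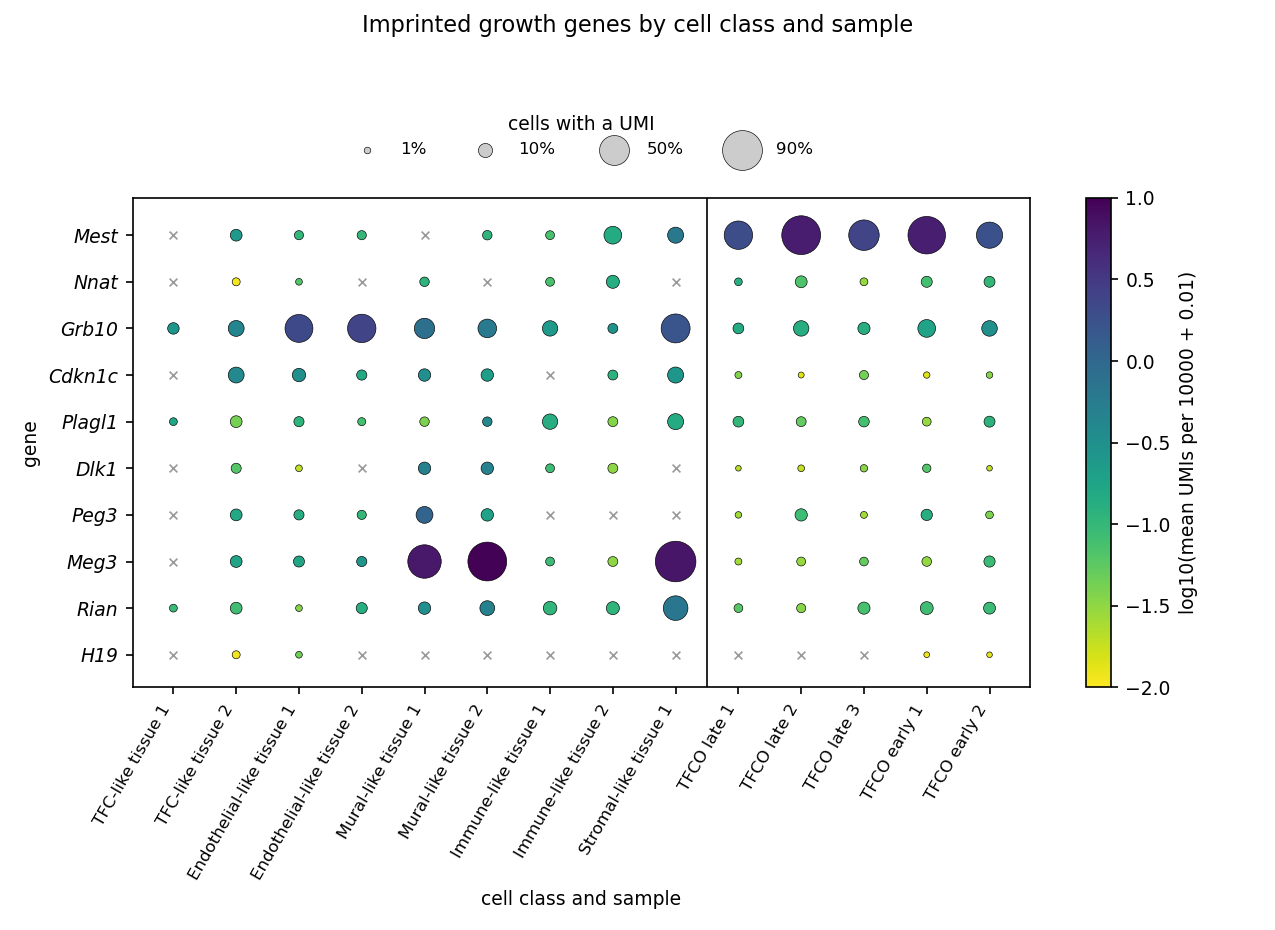
Dot plot of the 10 genes (rows) in the named tissue cell classes with at least 10 cells in a sample and in the 5 TFCO samples (columns). The unnamed cells are not shown. Dot area follows the share of cells with a UMI (in percent), colour the log10 of the mean UMIs per 10000 plus 0.01, and a cross marks 0 UMIs. Mest stands out in the TFCO columns, Meg3 in the mural-like and stromal-like columns and Grb10 in the endothelial-like columns.

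Mest was the member that the TFCOs held most of, and tissue TFC-like cells held little of it. Mest encodes a membrane protein of the endoplasmic reticulum with a hydrolase fold and is a marker of fetal mesoderm and of growing fat. Its gene lies at chr6:30723547-30748465 on the plus strand (GRCm38, GENCODE M21), and exons of Copg2 overlap it on the other strand. The TFCOs held 6183 Mest UMIs in 877 of 1457 cells, against 59 UMIs in 26 of 578 tissue cells.

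The level was 0 in the TFC-like cells of tissue 1 and 0.233 in those of tissue 2. It was 2.00, 5.92 and 2.51 in late 1, 2 and 3, and 5.55 and 1.77 in early 1 and 2. All 5 TFCO samples lay above both tissue samples, as did 35.4% of the 12115 genes tested. The tissue mean was 0.117 ± 0.165 (SD, n = 2) and the TFCO mean 3.55 ± 2.02 (SD, n = 5). No ratio is given, since tissue 1 was at 0 and 0.225 of the 0.233 in tissue 2 came from 1 cell with 3 Mest UMIs of 2894. On the scale of log2(mean + 1), the difference was 1.93 (SE 0.59, 95% interval 0.65 to 3.20). It missed the threshold of 0.05 (limma, adjusted p = 0.0698), and so did Grb10, so neither of the 2 members tested passed, where 5.99% of all tested genes did (726 genes). Of these, 410 were higher in TFCOs (3.38%) and 316 lower (2.61%), against 181 higher and 566 lower after centring each sample on its median gene and 865 higher and 217 lower with a pseudocount of 0.1.

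The call on Mest moved with single libraries. Its limma adjusted p was 0.0219 without tissue 1, 0.0118 without tissue 2, 0.0282 without late 1 and again without late 2, and 0.0355 without early 2, but 0.0570 without late 3 and 0.102 without early 1. A pseudocount of 0.1 raised the log2 difference to 4.14 (limma adjusted p = 0.0108). The direction was the same in each of these fits.

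The share of cells with a Mest UMI ranked the samples as the level did. In tissue TFC-like cells it was 0 of 49 in tissue 1, for which the limit by 3 counts is 6.12% and the upper 95% Clopper-Pearson bound 7.25%, and 6.52% (95% Clopper-Pearson interval 1.37 to 17.9) in tissue 2. In late 1, 2 and 3 it was 45.0% (39.3 to 50.7), 85.3% (81.2 to 88.8) and 52.1% (45.6 to 58.5). In early 1 and 2 it was 79.6% (73.8 to 84.5) and 38.02% (32.6 to 43.6). The intervals cover counting error only, and the groups did not overlap. The TFCO mean of 59.98% ± 21.2 (n = 5) exceeded the tissue mean of 3.26% ± 4.61 (n = 2) with an exact two-sided permutation p of 0.0476, the smallest that 21 splits allow. It is 1 of 20 such tests, 10 members in 2 comparisons, and was not adjusted.

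TFCO cells were deeper than tissue cells, so the shares were also taken after each cell had been thinned to 1000 UMIs, a depth that all 2035 cells reach. The Mest share was then 0 and 1.64% in the tissue TFC-like cells, 14.9%, 36.3% and 16.6% in the late samples and 33.5% and 13.2% in the early samples. The groups still did not overlap, but the exact two-sided permutation p was 0.0952. The thinned share was 0.951% and 0.877% in endothelial-like cells and 0.647% and 1.36% in immune-like cells, at median depths before thinning of 3807 and 6273 UMIs against 2288 in TFC-like cells. The tissue TFC-like share was thus near that of the endothelial-like and immune-like cells and the TFCO share was not. Stromal-like cells and the cells set aside are not part of this comparison. The 2 deepest TFC-like cells of tissue 2 had 268847 and 151110 UMIs, where the next deepest had 15122. They held 6 of the 9 Mest UMIs of its TFC-like cells. Of the level of 0.233 UMIs per 10000 they gave 0.0080. TFC markers summed to 194 and 298 per 10000 in these 2 cells, against 1218 over the class in tissue 2. They also held markers of other classes, among them 826 UMIs of mural markers in the first and 469 of endothelial markers in the second. Without these 2 cells the log2 difference between TFCOs and tissue was 1.92 (limma adjusted p = 0.0742).

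**Figure D2:**
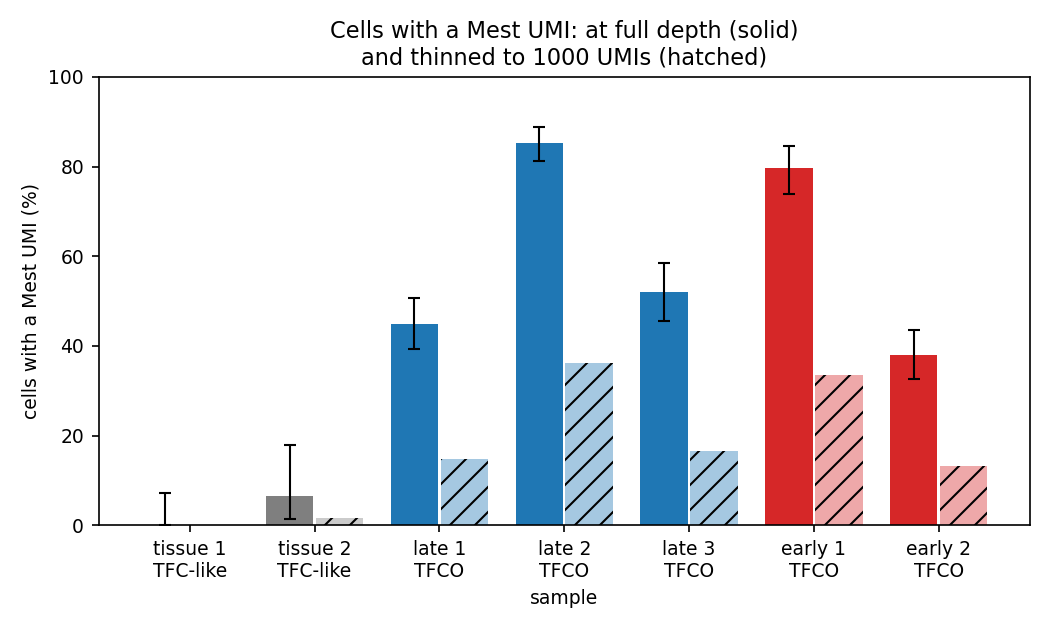
Bars show the percent of cells with a Mest UMI in each sample (x axis), solid at full depth with exact 95% Clopper-Pearson intervals and hatched after thinning each cell to 1000 UMIs, in grey for tissue TFC-like cells, blue for late and red for early TFCOs. Every TFCO sample exceeds both tissue samples on both scales, and late 2 and early 1 are the highest.

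Among the TFCO samples, late 2 and early 1 held more Mest than late 1, late 3 and early 2, on every scale above. How many of all genes give this order was not counted. At least 5 Mest UMIs were found in 46.9% of the cells of late 2 and in 40.0% of those of early 1, against 6.84% in late 1, 14.05% in late 3 and 8.31% in early 2. These shares are not scaled for depth, and late 2 and early 1 were the deepest samples. By count, the highest cell, in early 1, held 111 UMIs. Per 10000 UMIs, the highest cells stood at 37.3, 44.5 and 38.4 in late 1, 2 and 3 and at 40.1 and 34.8 in early 1 and 2. The spread within a sample was wide. The upper quartile of cells lay above 8.62 per 10000 in late 2 and above 7.87 in early 1, while the median cell stood at 3.52 and 2.75. In late 1 and early 2 the median cell held 0.

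**Figure D3:**
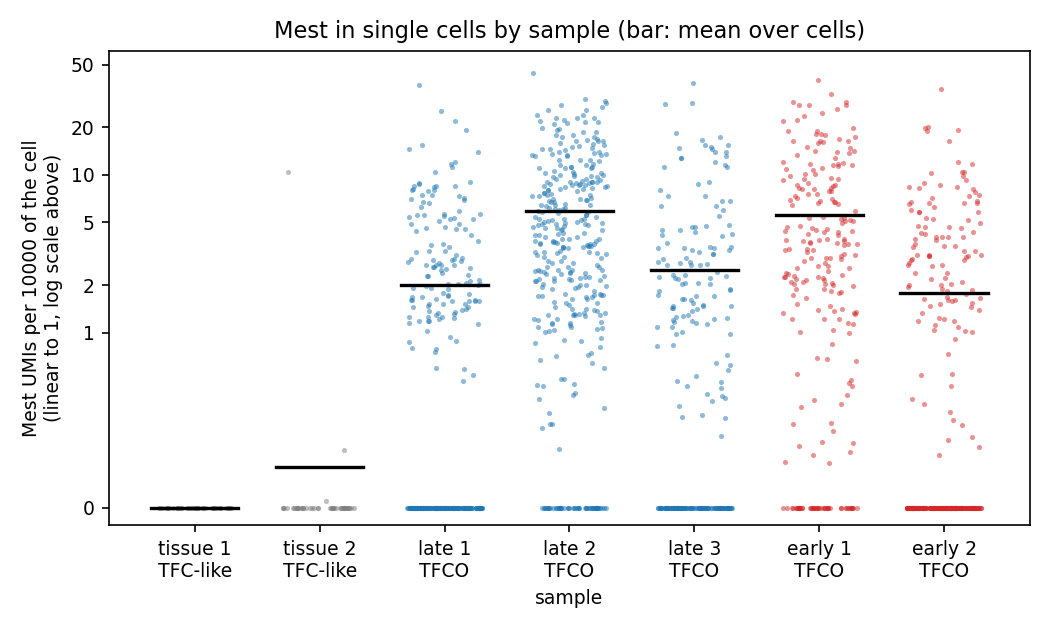
Each point is a cell, with its Mest UMIs per 10000 UMIs on the y axis (linear up to 1, log scale above) and the sample on the x axis, in grey for tissue TFC-like cells, blue for late and red for early TFCOs. Black bars are means over cells, from 0 in tissue 1 to 5.92 in late 2, and every TFCO sample also holds cells at 0.

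The stage of passage did not separate the samples. The late mean was 3.48 ± 2.13 (SD, n = 3) and the early mean 3.66 ± 2.67 (SD, n = 2), and the groups overlapped. The log2 difference of late minus early was -0.03 (SE 0.34, 95% interval -0.77 to 0.71, limma adjusted p = 0.971). Neither tested member passed here, where 0.0165% of tested genes did (2 of 12115, with 2344 at an unadjusted p under 0.05). The sign of the Mest difference turned without late 1 (0.21), late 3 (0.10) or early 1 (0.59).

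In the tissue, outside the TFC-like cells, most Mest UMIs sat in few cells. The 6 cells of tissue 1 that were set aside held 20 of the 59 tissue UMIs, in 3 cells. The cell with the most, 12 UMIs, had 1657 UMIs of Calca, the calcitonin gene that marks C cells, and also held most of the tissue's Nnat. Another 10 UMIs came from 1 stromal-like cell of tissue 1, where the class level was 0.602 over 15 cells. Levels in the endothelial-like, mural-like and immune-like cells ranged from 0 to 0.136.

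Mest was lower in proliferating than in other cells of the same TFCO sample. Proliferating cells were those with UMIs of at least 5 of 10 markers, and there were 13, 63 and 18 in late 1, 2 and 3 and 50 and 11 in early 1 and 2, or 155 of 1457. Of these, 48 lay at the cut and 60 other cells lay 1 marker below it. The Mest level was 1.65 in proliferating against 2.02 in other cells of late 1, 3.99 against 6.33 in late 2 and 0.575 against 2.66 in late 3. It was 4.17 against 5.92 in early 1 and 1.03 against 1.80 in early 2. The proliferating cells were thus lower in 5 of 5 samples, as were 7.59% of the 12098 genes tested. The log2 difference was -0.57 (SE 0.14, 95% interval -0.87 to -0.27, limma with the sample as a term, adjusted p = 0.0412). Mest was the 1 member of 2 tested that passed, where 3.03% of genes did, 2.38% higher and 0.653% lower.

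The result depended on single samples. The limma adjusted p was 0.0620 without late 1, 0.101 without late 2, 0.179 without late 3 and 0.0822 without early 1, and 0.0343 without early 2, with log2 differences between -0.66 and -0.41. Without late 2 and early 1 together it was 0.2, and the log2 difference was -0.62. With at least 3 markers as the cut, the Mest difference was -0.34 (limma adjusted p = 0.0468). Late 3, with 18 proliferating cells and 17 Mest UMIs among them, had the widest gap. Proliferating cells were deeper, with a median of 16059 UMIs against 7532.5, and after thinning to 1000 UMIs the share with a Mest UMI was still lower in each sample, from 5.43% against 17.5% in late 3 to 13.4% against 14.9% in late 1.

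**Figure D4:**
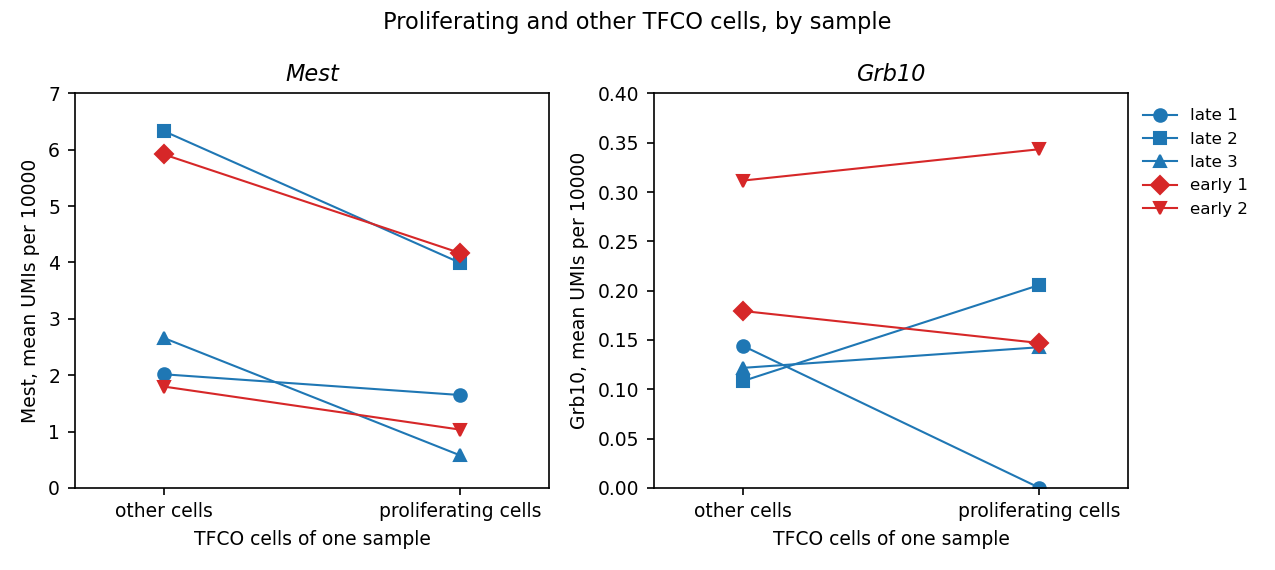
Mean UMIs per 10000 (y axis) of Mest (left) and Grb10 (right) in the other and the proliferating cells of each TFCO sample, joined by a line, with late samples in blue and early samples in red. All 5 Mest lines fall, whereas the Grb10 lines go both ways.

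Across samples the order ran the other way. The share of proliferating cells was 17.5% in late 2 and 21.3% in early 1, against 4.23%, 7.44% and 3.51% in late 1, late 3 and early 2, and the first pair also had the most Mest. This was so in the other cells alone, at 6.33 and 5.92 against 2.02, 2.66 and 1.80. Late 2 and early 1 were also the deepest libraries, and the part of depth or of proliferation in their Mest level was not tested. The call of a proliferating cell was not scaled for depth either, so deeper samples can yield more such cells. Per 10000 UMIs, the 10 markers summed to 5.45 in late 2 and 6.56 in early 1. They summed to 2.48, 4.03 and 2.65 in late 1, late 3 and early 2.

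Nnat, which encodes a small proteolipid of the endoplasmic reticulum known from the developing brain and from hormone-secreting cells, was rare in tissue apart from the cells set aside. Of its 63 tissue UMIs, 51 were in those 11 cells and 42 in 1 of them, the cell of tissue 1 with 1657 Calca UMIs. A further 8 were in a cell with 175 Calca UMIs, which held 7 Mest UMIs as well. TFC-like cells held 0 Nnat UMIs in tissue 1 and 1 in tissue 2.

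In TFCOs there were 87 Nnat UMIs in 65 cells. The levels were 0.120, 0.0592 and 0.0201 in late 1, 2 and 3 and 0.0682 and 0.0932 in early 1 and 2, above the tissue TFC-like levels of 0 and 0.00144 in each case. A gap of this size can rest on 1 UMI. The TFC-like cells of tissue 1 held 131628 UMIs in all, and there 1 Rian UMI gave a level of 0.0844. For Nnat in 0 of these 49 cells the upper Clopper-Pearson bound was 7.25%, above the mean TFCO share of 4.33%. The 1 Nnat UMI of tissue 2 was in a cell of 151110 UMIs. All TFCO samples lay above both tissue samples for 35.4% of tested genes. The share of cells did not separate the groups at full depth (exact two-sided permutation p = 0.238) and did after thinning to 1000 UMIs (p = 0.0476, the smallest possible). Neither p was adjusted for the number of such tests, and the few tissue UMIs limit both. However, the level of Nnat followed the well barcode, with a correlation of 0.333 between TFCO cells that shared a barcode on separate plates, against -0.033 for Mest. Of the 65 cells, 30 had 1 of 11 barcodes that recurred in at least 2 samples. Nnat lies at chr2:157560078-157562522 on the plus strand (GRCm38), inside Blcap on the other strand, with no exon shared.

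Dlk1 and Peg3 were led by mural-like cells, from few UMIs. Dlk1 encodes a membrane protein of the Notch ligand family that restrains the maturing of fat cells, and Peg3 a large zinc finger protein. Dlk1 lies at chr12:109452823-109463336 on the plus strand and Peg3 at chr7:6703892-6730431 on the minus strand (GRCm38). The Dlk1 level was 0.483 and 0.461 in the mural-like cells of tissue 1 and 2, from 5 UMIs in 2 cells each, with 10 of all 21 tissue UMIs in this class. Peg3 reached 1.10 in the mural-like cells of tissue 1 (12 UMIs in 4 cells) but 0.175 in those of tissue 2 (2 UMIs), so the samples did not give the same picture. In TFC-like cells, Dlk1 stood at 0 and 0.0532 and Peg3 at 0 and 0.150.

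In TFCOs, Peg3 was at 0.0165, 0.0767 and 0.0156 in late 1, 2 and 3 and at 0.126 and 0.0292 in early 1 and 2. Late 2 and early 1, the deepest samples and those with the most Mest, were the highest, with 42 and 28 UMIs against 3, 5 and 7. These UMIs are not scaled for depth, and how many of all genes give this order was not counted. Dlk1 came to 22 UMIs in 16 of the 1457 TFCO cells, 7 of them in 1 cell of early 1. The shares of cells with either gene gave no separation of TFCOs from tissue TFC-like cells (exact two-sided permutation p = 0.571 for Dlk1 and 0.952 for Peg3).

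Plagl1, a zinc finger transcription factor that acts on other imprinted genes, was low in every named class. It lies at chr10:13060504-13131694 on the plus strand (GRCm38). Its level in the named tissue classes ranged from 0.0262 in the immune-like cells of tissue 2 to 0.382 in the mural-like cells of tissue 2. In the latter a single cell held all 4 UMIs. The unnamed cells held 9 of its 33 tissue UMIs. TFC-like cells stood at 0.153 and 0.0318. The TFCO levels were 0.0927, 0.0428 and 0.0681 in late 1, 2 and 3 and 0.0196 and 0.108 in early 1 and 2. Here late 2 and early 1 were the lowest, an order not counted over all genes, and the tissue range spanned 4 of the 5 TFCO samples. The share of cells with a UMI was 2.98% to 5.43% in TFCOs and 2.04% and 6.52% in tissue TFC-like cells (exact two-sided permutation p = 0.952).

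Among the genes that hold growth back, Grb10 was highest in endothelial-like cells. Grb10 encodes an adaptor that binds the insulin and insulin-like growth factor receptors and dampens their signal. The gene lies at chr11:11930508-12038683 on the minus strand (GRCm38). Its level was 2.14 and 2.45 in the endothelial-like cells of tissue 1 and 2, with a UMI in 43.3% (95% Clopper-Pearson interval 32.9 to 54.2) and 44.9% (34.4 to 55.9) of cells. These cells held 169 of the 312 tissue UMIs, or 54.2%. Stromal-like cells of tissue 1 followed at 1.65, then mural-like cells at 0.794 and 0.588, with no overlap between the endothelial-like and mural-like samples. TFC-like cells (0.255 and 0.417) and immune-like cells (0.226 and 0.286) were lowest and overlapped. Because the classes come from clustering of the same cells, no test was made between them.

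In TFCOs Grb10 stood at 0.138, 0.125 and 0.123 in late 1, 2 and 3 and at 0.172 and 0.313 in early 1 and 2. The TFCO mean of 0.174 ± 0.080 (SD, n = 5) was below the tissue TFC-like mean of 0.336 ± 0.114 (SD, n = 2), with 1 TFCO sample inside the tissue range. All TFCO samples lay below both tissue samples for 9.99% of tested genes. The log2 difference of TFCOs minus tissue was -0.17 (SE 0.11, 95% interval -0.42 to 0.07, limma adjusted p = 0.337). It passed only without tissue 1 (-0.26, adjusted p = 0.0214). The 2 deepest cells of tissue 2 held 42 of the 50 UMIs in TFC-like cells but gave 0.046 of the level of 0.417, and without them the difference was -0.16 (limma adjusted p = 0.384).

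Both early samples lay above all late samples, an order that 24.2% of tested genes shared. The log2 difference of late minus early was -0.14 (SE 0.07, 95% interval -0.28 to 0.01, limma adjusted p = 0.277). The share of cells with a Grb10 UMI was 5.21%, 12.2% and 7.02% in late 1, 2 and 3 against 16.6% and 12.5% in early 1 and 2 (exact two-sided permutation p = 0.2, where 10 splits allow no less than 0.1). Proliferating cells gave no direction (log2 difference -0.01, SE 0.06, limma adjusted p = 0.952, lower in 2 of 5 samples). Grb10 followed the well barcode to a lesser degree than Nnat, with a correlation of 0.138.

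Cdkn1c, an inhibitor of cyclin-dependent kinases that takes cells out of the cycle, had 34 UMIs in tissue and 28 in TFCOs. It lies at chr7:143458339-143461050 on the minus strand (GRCm38), with an antisense gene over its exons. In a cluster of 12 endothelial-like cells led by Aqp1, Vwf and Selp, singled out after its values had been seen and under the minimum for a level, 2 of 7 cells of tissue 1 and 4 of 5 cells of tissue 2 held a UMI. Endothelial-like cells as a whole stood at 0.309 and 0.145, and mural-like cells at 0.316 and 0.208. The TFC-like cells of tissue 1 held 0 UMIs in 49 cells (limit by 3 counts 6.12%, upper Clopper-Pearson bound 7.25%), while those of tissue 2 stood at 0.378, from 7 UMIs in 6 of 46 cells, so the 2 tissue samples differed. TFCOs were low throughout, at 0.0267, 0.00347 and 0.0339 in late 1, 2 and 3 and 0.00410 and 0.0248 in early 1 and 2. Late 2 and early 1 were the lowest, with 2 and 4 UMIs, an order not counted over all genes. The share of cells differed by -5.13 percentage points between TFCOs and tissue TFC-like cells (exact two-sided permutation p = 0.286).

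Among the named classes, the long noncoding RNAs Meg3 and Rian were highest in mural-like and stromal-like cells. Both are read from the mother's copy of the domain that also holds Dlk1, Meg3 from chr12:109541001-109571726 and Rian from chr12:109603940-109661716, on the plus strand (GRCm38). Meg3 stood at 6.32 and 9.48 in the mural-like cells of tissue 1 and 2, with a UMI in 63.0% (95% Clopper-Pearson interval 42.4 to 80.6) and 85.2% (66.3 to 95.8) of cells. In the stromal-like cells of tissue 1 it stood at 6.80 (93.3% of 15 cells, 68.1 to 99.8). The 7 stromal-like cells of tissue 2, under the minimum of 10 for a level, held 16 UMIs in 5 cells. The endothelial-like level was 0.160 and 0.264 and the immune-like level 0.0803 and 0.0221, so mural-like and stromal-like cells stood apart from both in each sample. Meg3 was not confined to these classes. The unnamed cells held 112 of the 432 tissue UMIs, beside 168 in mural-like and 73 in stromal-like cells.

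TFC-like cells held 0 Meg3 UMIs in tissue 1 and 50 in tissue 2, a level of 0.172. Of these 50, 49 were in the 2 deepest cells (12 and 37), which gave 0.063 of the level, and the other UMI, in a cell of 1989 UMIs, gave 0.109. In TFCOs, 55 UMIs were spread over 49 of 1457 cells, with levels of 0.0152, 0.0198 and 0.0415 in late 1, 2 and 3 and 0.0205 and 0.0809 in early 1 and 2. The TFCO share of cells of 3.37% ± 1.62 (SD, n = 5) lay within the tissue values of 0 and 6.52% (exact two-sided permutation p = 0.952). Late shares of 1.303%, 3.06% and 2.89% lay below early shares of 3.83% and 5.75% (exact two-sided permutation p = 0.1, the smallest that this design allows), although the levels overlapped. After thinning to 1000 UMIs the late and early shares overlapped (exact two-sided permutation p = 0.5), as did the shares with at least 2 UMIs. For levels, 24.2% of tested genes had all late samples below both early samples, and for shares this was not counted over all genes.

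Rian was lower and its order similar. It stood at 0.650 in the stromal-like cells of tissue 1 and at 0.323 and 0.478 in mural-like cells, and at 0.0263 and 0.117 in endothelial-like and 0.0986 and 0.102 in immune-like cells. TFC-like cells were at 0.0844 and 0.0734, from 1 and 3 UMIs. The TFCO levels of 0.0514, 0.0250, 0.0646, 0.0725 and 0.0802 (late 1, 2, 3 and early 1, 2) overlapped these. The 80 UMIs fell in 78 TFCO cells. Of the 50-base stretches in the annotated transcripts, 4.29% in Meg3 and 1.24% in Rian also occur in other genes, which adds uncertainty to such low counts.

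H19, a long noncoding RNA that restrains growth of the placenta and fetus, was near the limit of detection. It lies at chr7:142575529-142578143 on the minus strand (GRCm38). It had 5 UMIs in tissue, 4 of them in 1 endothelial-like cell of tissue 1 and 1 in a TFC-like cell of tissue 2, and 2 UMIs in TFCOs, 1 each in early 1 and 2. It was not seen in the late samples, where 0 of 307, 360 and 242 cells give limits by 3 counts of 0.977%, 0.833% and 1.24% and upper 95% Clopper-Pearson bounds of 1.19%, 1.02% and 1.51%. No difference between groups was detectable at this depth.

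Of 50 other imprinted genes listed for comparison, 41 were analysed here and 25 reached the level for a test of TFCOs against tissue TFC-like cells. None passed the threshold in either direction (limma, adjusted p from 0.0659 to 0.876), with 9 at an unadjusted p under 0.05. The median log2 difference was 0.17, beside 0.11 over all tested genes. By size, chosen after the values were seen, Kcnq1ot1, the antisense RNA that silences the Cdkn1c domain, stood highest (log2 difference 1.02, limma adjusted p = 0.0659), at 0.103 and 0.135 in tissue and 0.790 to 1.72 in TFCOs without overlap. Trappc9, a gene of vesicle transport, stood lowest (-0.63, adjusted p = 0.0933), at 2.29 and 2.24 in tissue and 0.948 to 1.27 in TFCOs, again without overlap. Of all tested genes, 35.4% had every TFCO sample above both tissue samples and 9.99% had every TFCO sample below both. Copg2, a coat protein gene antisense to Mest, differed by 0.40 (limma adjusted p = 0.236), and its reads cannot be told apart from those of Mest where counting ignored strand. Blcap, around Nnat, differed by 0.27 (adjusted p = 0.127).

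**Figure D5:**
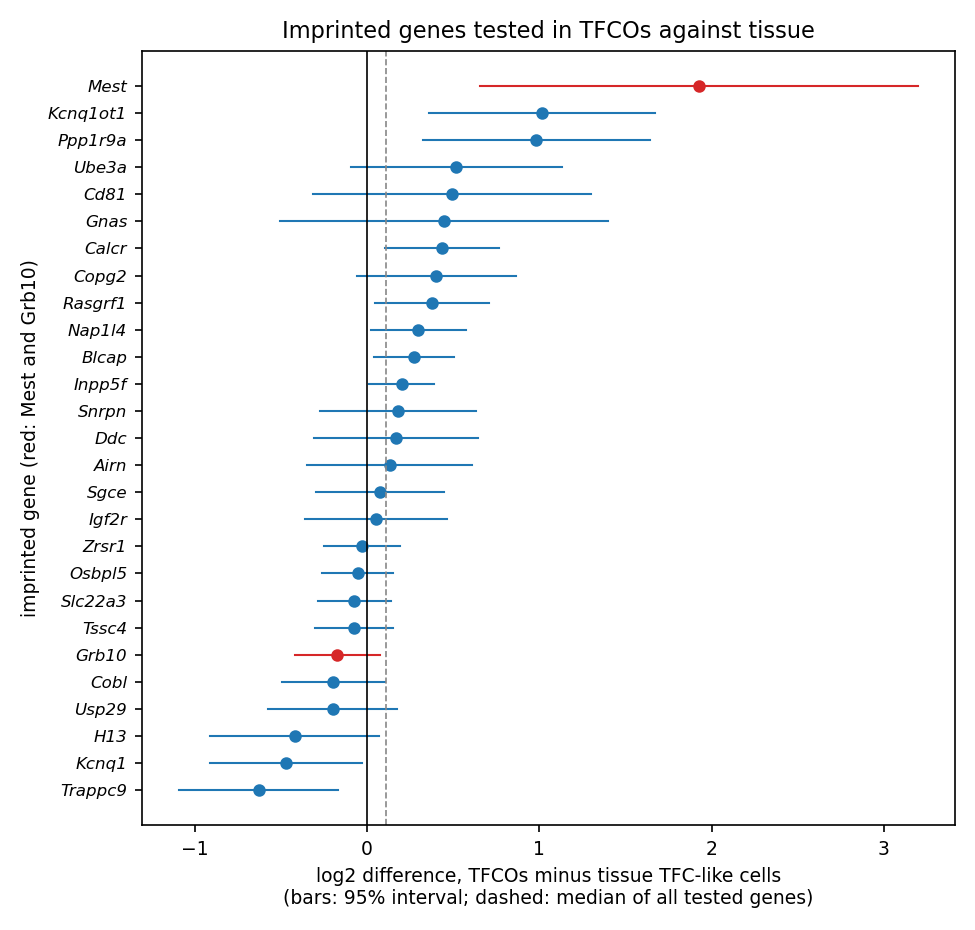
Log2 differences on the scale of mean + 1 (x axis) of TFCOs minus tissue TFC-like cells for the 27 imprinted genes tested (y axis), Mest and Grb10 in red and 25 others in blue, with bars for 95% intervals and a dashed line for the median of all tested genes (0.11). Mest has the highest value and the widest interval.

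Between late and early TFCOs, 0 of 25 tested genes of this list passed (limma, 6 at an unadjusted p under 0.05), with a median log2 difference of -0.0039, beside -0.0084 over all genes. Between proliferating and other cells, 0 of 26 passed (2 at an unadjusted p under 0.05), with a median of -0.023, beside 0.00038 over all genes. The 6 other inhibitors of cyclin-dependent kinases were listed because of Cdkn1c. None of the 3 tested passed in either of the first 2 comparisons, with 0 at an unadjusted p under 0.05. All 6 were tested in proliferating cells and none passed (4 at an unadjusted p under 0.05), with a median log2 difference of 0.16. Cdkn1a came closest (0.41, limma adjusted p = 0.0555).

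As a description of likeness, each tested member was correlated with 13069 genes over 16 means, on the scale of log2(mean + 1). These were the means of the tissue classes by sample, with the unnamed cells as a class, and of the 5 TFCO samples. The means share libraries and depth, and no p is given. The genes most like Mest were Epdr1 (Pearson r = 0.986), Acat2 (0.981), an enzyme of sterol metabolism, and Dcpp3 (0.980). The genes most like Grb10 were Cd34 (0.963), a surface protein of vessels and blood stem cells, Hspg2 (0.958), the basement membrane proteoglycan perlecan, and Plscr4 (0.957).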

How the data were processed

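Mouse thyroid tissue and TFCO cells were profiled by SORT-seq, a plate method that counts 3′ ends with UMIs in single cells sorted as DAPI-negative. Per the labels, processing used Trim Galore 0.4.3, STAR 2.5.3a, Seurat and GRCm38 or mm10. The annotation, cell filter and strand setting are not given in the sources used here. The authors deposited natural log values, ln(1 + UMIs per 10000 UMIs of the cell), for 30879 genes in 2590 cells. The log was undone and UMIs were recovered as multiples of each cell's smallest value (100% whole within 0.01).

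Samples were grouped by the passage stage in the labels. Cells of at least 1000 UMIs were kept, and no doublet caller was run. Tissue cells were clustered in scanpy 1.11.5 (2000 variable genes, 30 components, 15 neighbours, Leiden resolution 1) without imprinted genes and without genes whose level followed the well barcode (correlation above 0.05, 21.4% of 19498 genes). Means per sample and class, as log2(mean + 1), were tested in limma 3.58.1 (R 4.3.3, trended empirical Bayes, Benjamini-Hochberg over all genes with a mean of at least 0.1), with 1 estimated weight for tissue and 1 for TFCO samples. TFCO minus tissue is the mean of late and early minus tissue. Proliferating and other cells were compared with the sample as a term. These values are not counts as deposited, so no count model was used. Shares carry exact Clopper-Pearson intervals and exact permutation tests. Total depth per sample was 1406925 to 4703472 UMIs.

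All 10 members are named, as are the 3 genes most like each tested member, and listed genes past the threshold. The members and lists were chosen with earlier results of these data known. Steps were tested on simulated data. Gene positions come from GENCODE M21 and sequences from RefSeq (GRCm38.p6), with promoters for 8 members and microRNAs for 4. H19 and Cdkn1c had no promoter entry. The list of well barcodes was not used.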

Additional observations from a re-analysis of the deposited data

How the results depend on the processing

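The call on Mest between TFCOs and tissue TFC-like cells depended on the processing: 9 of 18 alternatives put it past the threshold, with log2 differences of 1.43 to 4.14 and limma adjusted p from 0.00445 to 0.167, and the cause was not tested. Genes past the threshold in that comparison numbered 1202 with a minimum mean of 0.5, 225 with summed UMIs, 282 with cells of at least 2000 UMIs, 4120 with equal weights, 1133 with TFC-like cells taken by score, and 326 (without early 1) to 5198 (without tissue 1) with 1 sample left out. With 1 tissue sample left out, the other is assumed to vary like the rest. Between late and early TFCOs they numbered 4 with a pseudocount of 0.1, 1 with a minimum mean of 0.5, with no minimum, with summed UMIs, with cells of at least 2000 UMIs and with equal weights, 895 without late 2 and early 1 together, and 1 to 1145 (without early 1) with 1 sample left out. The Mest difference of late minus early was 0.23 without late 2 and early 1, and ran from -0.65 to 0.59 with 1 sample left out.

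Between proliferating and other cells, 44 genes passed with no minimum mean, 130 without late 2 and early 1, and 174 (without late 3) to 413 (without early 2) with 1 sample left out. With no replicate block 199 passed, and Mest had a limma adjusted p of 0.545, against 0.299 with no minimum mean and the block kept. For Grb10 the difference was 0.0089 with cells of at least 2000 UMIs and 0.066 with at least 3 proliferation markers, and ran from -0.043 to 0.036 with 1 sample left out. No paired analysis was possible because replicate numbers across tissue, late and early groups are only names given in accession order. Leaving out the 2 deepest tissue cells, and leaving out late 2 and early 1 in this comparison, were chosen after seeing the data.

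Shares of cells with at least 2 UMIs differed between TFCOs and tissue TFC-like cells by 39.8 percentage points for Mest (exact permutation p = 0.0952), -1.86 for Meg3, -1.17 for Plagl1 and -1.42 for Grb10. After thinning to 1000 UMIs they differed by 22.1 for Mest, -0.476 for Meg3, -0.201 for Rian, 0.00184 for H19, -0.234 for Peg3, -0.283 for Plagl1 and -1.54 for Grb10, and the late minus early difference of Mest was -0.771. Depth limits the 8 members below the minimum mean, which rest on 2 to 91 TFCO UMIs each.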
